A study of Mus musculus with 13 samples.

Results

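Glycolysis in liver, the entry of fructose into it and the carbohydrate-sensing factor ChREBP were followed through 9 genes (Pklr, Khk, Txnip, Mlxipl, Pfkl, Pfkfb1, Gpi1, Gpd1 and Gckr) on Affymetrix mouse gene arrays. The genes were taken by symbol, through probe sets annotated to exactly 1 gene. Of these 9 genes, 7 were measured this way among 22180 genes in all, and all 7 were among the 13308 genes bright enough to be tested. Pfkfb1, a liver enzyme that sets the level of the glycolytic activator fructose 2,6-bisphosphate, and Gpi1, the glucose-6-phosphate isomerase, were not analysed here.

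The RNA came from livers of male C57Bl/6J mice, a common inbred strain. Per the labels, a diet with 60% fat was started at 6 weeks of age and fed freely for 4 weeks to cause obesity in every group. In the 4 weeks that followed, the mice of 4 arrays were given canagliflozin at 25 to 30 mg/kg with that diet (CANA), those of 5 arrays were fed 15 to 30% fewer calories so that their weight matched that of the CANA mice (CR), and those of 4 arrays continued on the diet (HFD). Canagliflozin blocks SGLT2, the kidney transporter that recovers filtered glucose, and so lowers glucose by loss into urine. All groups shared the weeks of high-fat feeding, and no lean or low-fat group was among the arrays. The labels do not tie each array to a separate mouse, so the p-values speak only of spread among these samples, which may be technical.

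As background, liver takes up glucose and traps it through glucokinase, which the protein of Gckr holds inactive in the nucleus. Khk phosphorylates fructose, which then joins glycolysis below the step of phosphofructokinase, the enzyme to which Pfkl contributes the liver subunit. Pklr makes the liver pyruvate kinase, which forms pyruvate at the last step. Gpd1 makes the cytosolic enzyme that turns the glycolytic intermediate dihydroxyacetone phosphate into glycerol 3-phosphate, the backbone of triglycerides. Mlxipl encodes ChREBP, which is active when hexose phosphates are abundant and binds carbohydrate response elements, pairs of E-box half-sites, in genes such as Pklr and Txnip. Txnip encodes a protein that binds thioredoxin and restrains glucose uptake.

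The promoters of Pklr and Txnip, named above as genes that ChREBP binds, each held a match to such an element, and they are shown for that reason. The genes were listed for their part in this response, so the matches are not independent support for it. In CANA minus CR the 2 genes differed in opposite directions, Pklr by -0.97 and Txnip by 0.90. A part of the elements in these differences was not tested. Windows of 250 bases before to 50 bases after each RefSeq start site (build GRCm38.p6) were searched on both strands. The search was for CACGTG half-sites 5 bases apart with at most 2 mismatches in the 12 fixed bases. Among all 32851 mouse promoter windows, 313 (0.953%) had a match. Of the 13 windows of 8 of the 9 genes, 2 did. The match in Pklr spanned chr3:89136453-89136469 on the plus strand, bases -170 to -154 from the start site, and that in Txnip spanned chr3:96557872-96557888 on the plus strand, bases -85 to -69. Both had 2 mismatches. Capitals mark the 12 fixed positions, and the lower-case bases between them are the spacer.
Pklr element: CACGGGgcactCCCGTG
Txnip element: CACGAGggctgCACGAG
The windows around them are chr3:89136373-89136672 for Pklr and chr3:96557707-96558006 for Txnip, both on the plus strand, with the element in capitals. A second RefSeq window of Pklr had no match.
Pklr promoter: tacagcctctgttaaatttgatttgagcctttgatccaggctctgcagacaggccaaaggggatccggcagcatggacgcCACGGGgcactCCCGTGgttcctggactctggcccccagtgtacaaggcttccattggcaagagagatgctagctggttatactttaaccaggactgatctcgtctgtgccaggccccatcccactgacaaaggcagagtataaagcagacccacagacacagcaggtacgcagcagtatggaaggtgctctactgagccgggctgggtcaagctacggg
Txnip promoter: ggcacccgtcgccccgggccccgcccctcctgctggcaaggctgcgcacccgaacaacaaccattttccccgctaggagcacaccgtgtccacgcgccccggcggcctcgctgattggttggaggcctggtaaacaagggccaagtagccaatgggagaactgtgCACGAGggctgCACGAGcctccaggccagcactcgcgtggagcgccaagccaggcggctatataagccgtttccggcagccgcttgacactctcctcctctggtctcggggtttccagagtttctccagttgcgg

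A single E-box CACGTG, found in 7.15% of all windows, lay in the promoters of Khk (bases -71 to -66 from the start site) and Mlxipl (bases -98 to -93). The FoxO motif GTAAACA, found in 3.65% of windows, lay in the Txnip promoter at bases -121 to -115. The CCAAT box (37.4% of windows) occurred in 6 of the 13 windows, and the HNF1 palindrome with at most 2 mismatches (1.36% of windows) in 0 of them. These matches describe letters in the windows and are not evidence of binding.

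The arrays give log2 values, so a difference of 1 stands for a doubling. Array medians lay between 4.07 and 4.13, and any 2 arrays had a Pearson r of 0.977 to 0.989 over their genes. Precision is limited by how few arrays each group has. The arrays also carried serial numbers in their labels, and those numbered 1 to 8 (CANA replicates 1 and 2, CR replicates 1 to 3, HFD replicates 1 and 2) were examined apart from those numbered 9 to 14. Arrays of these sets were seen to differ in earlier work on these data. Marker genes of hepatocytes summed to 15.70 to 15.80 in CANA, 15.68 to 15.79 in CR and 15.63 to 15.76 in HFD (log2 of the summed levels). Of 11 marker lists of liver and other cell types, the summed levels overlapped between CANA and HFD in 11, between CR and HFD in 11 and between CANA and CR in 10, the exception being muscle at 6.29 to 6.37 in CANA and 6.41 to 6.51 in CR. No marker gene passed the test in any comparison. Of the adipocyte markers, Adipoq and Lep were too dim to be tested, while Plin1 was at 0.10 and Cidec, which liver also expresses, at 0.87 in CANA minus HFD. Their part in the results was not tested. In RNA of whole liver, fewer cells of a type and less RNA per cell cannot be told apart.

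In CANA livers Pklr was lower than in CR livers, and this was the 1 difference among the 7 genes that passed the test. Khk, Gckr, Mlxipl and Gpd1 averaged lower in CANA than in both other groups and Txnip averaged higher, without passing. In CR minus HFD the 7 differences lay between -0.10 and 0.24. A gene was called at a limma adjusted p under 0.05 over all 13308 genes. In CANA minus CR, 1 of the 7 was called, and it was lower, beside 0.15% of all genes (20) called in either direction and 0.0526% (7) called lower. Against HFD, 0 of 7 were called in CANA, beside 0.165% of all genes (22), and 0 of 7 in CR, beside 0% (0).

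At an unadjusted p under 0.05, CANA minus HFD had 5 of the 7 genes (1 higher and 4 lower), where 8.82% of all genes did. CANA minus CR had 4 (1 higher and 3 lower), where 8.43% of all genes did. CR minus HFD had 0, where 3.74% of all genes did. The median difference of the 7 genes was -0.30 in CANA minus HFD (all genes -0.01), -0.29 in CANA minus CR (all genes -0.0037) and 0.02 in CR minus HFD (all genes -0.01). The values of all arrays did not overlap between CANA and CR for 3 of the 7 genes, Txnip (higher) and Pklr and Gckr (lower), where 2.93% of all genes did not overlap, 1.42% higher and 1.51% lower. Between CANA and HFD 0 of the 7 were free of overlap, beside 4.9% of all genes, and between CR and HFD 0, beside 1.17%. CANA minus HFD and CANA minus CR share the CANA arrays, so these counts are not independent of each other.

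**Figure D1:**
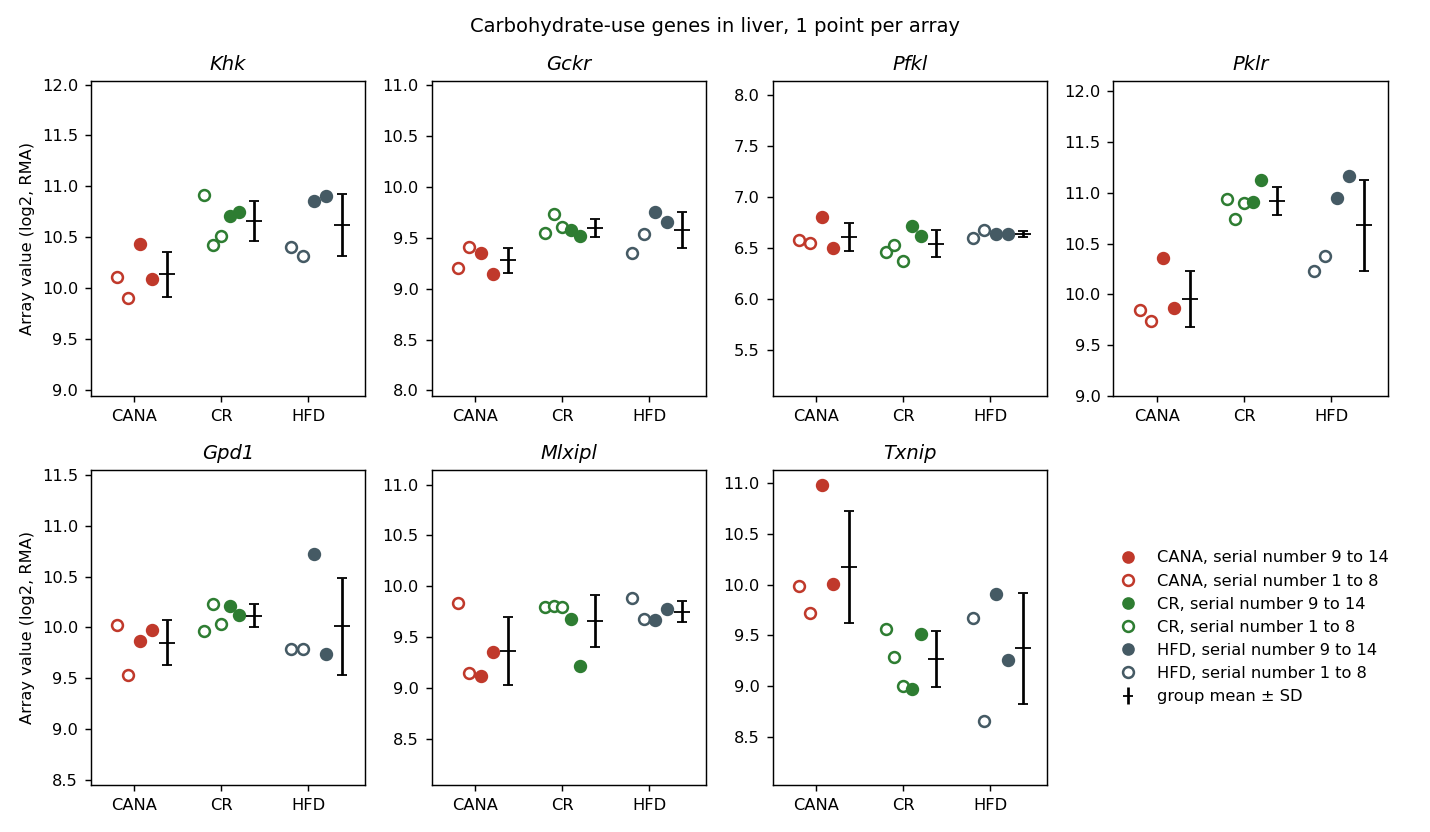
Log2 array values (vertical axes, each spanning the same 3.1 units) of the 7 measured genes in CANA, CR and HFD livers, with 1 point per array, filled for serial numbers 9 to 14 and open for 1 to 8, and bars for the group mean ± SD. Every CANA array lies below every CR array for Pklr and Gckr and above every CR array for Txnip, and the HFD arrays of Pklr fall into a lower pair (10.23 and 10.38) and a higher pair (10.95 and 11.16).

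Khk, the fructose kinase, read 10.11, 9.90, 10.44 and 10.09 in CANA livers (mean 10.13 ± 0.22, SD, n = 4). The CR livers read 10.91, 10.42, 10.51, 10.71 and 10.74 (10.66 ± 0.20, n = 5), and the HFD livers 10.40, 10.31, 10.85 and 10.90 (10.62 ± 0.30, n = 4). CANA replicates 1, 2 and 4 were below every array of the other groups, while CANA replicate 3 lay within the range of both. Khk differed by -0.49 in CANA minus HFD (SE 0.15, 95% interval -0.81 to -0.16, limma adjusted p = 0.286). It differed by -0.53 in CANA minus CR (SE 0.15, interval -0.83 to -0.22, limma adjusted p = 0.268), so neither comparison passed. CR minus HFD was 0.04 with an interval of -0.27 to 0.35. Within the arrays numbered 1 to 8 the CANA minus HFD difference of Khk was -0.35 and within those numbered 9 to 14 it was -0.62.

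Gckr, the glucokinase regulatory protein, read 9.21, 9.41, 9.35 and 9.14 in CANA livers (9.28 ± 0.12). The CR livers read 9.55, 9.74, 9.60, 9.57 and 9.52 (9.60 ± 0.08), and the HFD livers 9.35, 9.54, 9.76 and 9.65 (9.58 ± 0.17). The highest CANA array was below the lowest CR array, and only HFD replicate 1 reached into the CANA range. The differences were -0.32 in CANA minus CR (SE 0.10, interval -0.53 to -0.11, limma adjusted p = 0.312) and -0.30 in CANA minus HFD (SE 0.10, interval -0.52 to -0.08, limma adjusted p = 0.354). CR minus HFD was 0.02, with an interval of -0.18 to 0.23. Neither CANA comparison of Gckr passed the test over all genes.

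Pfkl, the liver subunit of phosphofructokinase, read 6.58, 6.55, 6.81 and 6.50 in CANA livers (6.61 ± 0.14), 6.46, 6.53, 6.37, 6.72 and 6.62 in CR livers (6.54 ± 0.13) and 6.60, 6.67, 6.64 and 6.64 in HFD livers (6.64 ± 0.03). The HFD arrays lay inside the range of the CANA arrays. The differences were -0.03 in CANA minus HFD (interval -0.23 to 0.17), 0.07 in CANA minus CR (interval -0.13 to 0.26) and -0.10 in CR minus HFD (interval -0.29 to 0.10). These intervals leave room for differences of at most 0.29 in size.

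Pklr, the liver pyruvate kinase, read 9.85, 9.73, 10.36 and 9.87 in CANA livers (9.95 ± 0.28). The CR livers read 10.93, 10.74, 10.90, 10.90 and 11.13 (10.92 ± 0.14), and the HFD livers 10.23, 10.38, 10.95 and 11.16 (10.68 ± 0.45). All CANA arrays were below all CR arrays, whereas CANA replicate 3 lay above HFD replicate 1. In CANA minus CR, Pklr fell by 0.97 on the log2 scale (SE 0.17, interval -1.34 to -0.60, limma adjusted p = 0.0367), a level 1.96-fold lower in CANA. It ranked 17 of 13308 genes by p in that comparison. In CANA minus HFD the difference was -0.73 (SE 0.18, interval -1.12 to -0.34, limma adjusted p = 0.166), 1.65-fold lower without passing the test. CR minus HFD was 0.24 (SE 0.17, interval -0.13 to 0.61, limma adjusted p = 0.999).

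The call of Pklr in CANA minus CR was close to the threshold. The difference ranged from -1.10 to -0.90 when each array was left out in turn, and the call was kept in 5 of 13 such fits. It was lost without CANA replicate 1 (limma adjusted p = 0.0773), 2 (0.139) or 4 (0.113) and without CR replicate 1 (0.103), 2 (0.0660), 3 (0.0773), 4 (0.101) or 5 (0.0718). Within the arrays numbered 1 to 8 it was -1.06 (limma adjusted p = 0.0295), and within those numbered 9 to 14 it was -0.90 (limma adjusted p = 0.439).

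The HFD arrays of Pklr differed by serial number, and both comparisons with HFD were also taken within each set. Within the arrays numbered 1 to 8, CANA read 9.85 and 9.73 and HFD 10.23 and 10.38. Within those numbered 9 to 14, CANA read 10.36 and 9.87 and HFD 10.95 and 11.16. In each set both CANA arrays were below both HFD arrays, by -0.51 and -0.94 on average. With the set as a block in the fit, the difference stayed at -0.73 and passed (limma adjusted p = 0.0395). It passed in 1 of 29 alternatives. The sets were examined because they had been seen to differ in these data, so this pass is not independent support. With the serial number as a covariate, the CANA minus HFD difference was -0.68 and did not pass (limma adjusted p = 0.0636). CANA minus CR was then -0.88 and passed (limma adjusted p = 0.0156). CR minus HFD of Pklr was 0.55 within arrays 1 to 8 and -0.037 within arrays 9 to 14.

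Over the 13 arrays, the deviation of Pklr from its group mean averaged -0.18 in the 7 arrays numbered 1 to 8 and 0.21 in the 6 numbered 9 to 14. Serial numbers were likewise taken as deviations from their group means. The Pearson r of Pklr with them was 0.69 (exact permutation p = 0.0308, 0.169 adjusted over the 7 genes, two-sided). Its Spearman rho was 0.65 (exact permutation p = 0.0386, 0.270 adjusted). Without the 2 arrays where the deviation of the serial number lay farthest from the median, r was 0.79. Within the sets, r with the serial numbers as labelled was 0.27 and -0.10.

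Gpd1, the cytosolic glycerol-3-phosphate dehydrogenase, read 10.03, 9.53, 9.87 and 9.98 in CANA livers (9.85 ± 0.22). The CR livers read 9.97, 10.23, 10.04, 10.21 and 10.12 (10.11 ± 0.11), and the HFD livers 9.79, 9.79, 10.72 and 9.74 (10.01 ± 0.47). HFD replicate 3 was far above the other HFD arrays. The difference of -0.16 in CANA minus HFD (interval -0.54 to 0.23) turned to 0.08 without that array, and CR minus HFD was then 0.34. With all arrays, CANA minus CR was -0.26 (interval -0.63 to 0.10, limma adjusted p = 0.723) and CR minus HFD 0.10 (interval -0.26 to 0.47). A second probe set of Gpd1 gave 0.02 in CANA minus HFD, -0.10 in CANA minus CR and 0.12 in CR minus HFD.

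Mlxipl, the gene of ChREBP, read 9.84, 9.15, 9.12 and 9.35 in CANA livers (9.36 ± 0.33). The CR livers read 9.80, 9.81, 9.80, 9.68 and 9.22 (9.66 ± 0.25), and the HFD livers 9.88, 9.68, 9.66 and 9.78 (9.75 ± 0.10). CANA replicates 2, 3 and 4 were below every HFD array, and CANA replicate 1 was within the HFD range. The differences were -0.39 in CANA minus HFD (SE 0.16, interval -0.72 to -0.05, limma adjusted p = 0.480), -0.29 in CANA minus CR (interval -0.61 to 0.02, limma adjusted p = 0.623) and -0.09 in CR minus HFD (interval -0.41 to 0.23). Without CANA replicate 1 the CANA minus HFD difference was -0.54 and still did not pass (limma adjusted p = 0.141). The deviation of Mlxipl from its group mean averaged 0.11 in arrays 1 to 8 and -0.12 in arrays 9 to 14. With the serial numbers, also as deviations from group means, its Pearson r was -0.60 (exact permutation p = 0.0482, 0.169 adjusted). The Spearman rho was -0.52 (exact permutation p = 0.0873, 0.305 adjusted).

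Txnip, the thioredoxin-interacting protein, was the 1 gene of the 7 that lay higher in CANA than in HFD livers. It read 9.99, 9.72, 10.98 and 10.00 in CANA livers (10.17 ± 0.55). The CR livers read 9.56, 9.29, 9.01, 8.98 and 9.51 (9.27 ± 0.27), and the HFD livers 9.67, 8.66, 9.91 and 9.26 (9.37 ± 0.55). Every CANA array was above every CR array, but HFD replicate 3 was above CANA replicate 2. The difference was 0.90 in CANA minus CR (SE 0.26, interval 0.36 to 1.45, limma adjusted p = 0.274), 1.87-fold higher in CANA. It was 0.80 in CANA minus HFD (SE 0.27, interval 0.23 to 1.37, limma adjusted p = 0.337), 1.74-fold higher, and -0.10 in CR minus HFD (interval -0.65 to 0.44). Neither CANA comparison passed, and CANA replicate 3 alone stood at 10.98. Without that array the difference was 0.63 in CANA minus CR and 0.53 in CANA minus HFD. A probe set annotated to both Txnip and Gm15441, which was left out of the test, averaged 5.15 ± 0.40 in CANA, 4.22 ± 0.42 in CR and 4.07 ± 0.15 in HFD.

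**Figure D2:**
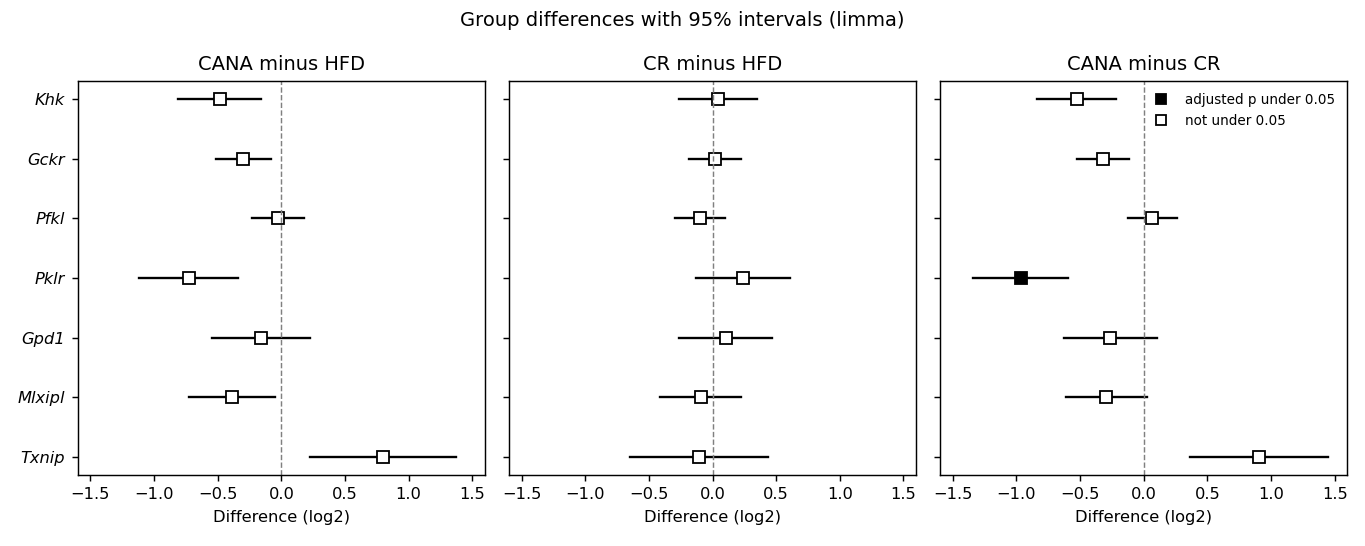
Differences between group means (log2, horizontal axis) of the 7 genes in CANA minus HFD, CR minus HFD and CANA minus CR, with 95% intervals from limma and filled squares where the adjusted p was under 0.05. The 1 filled square is Pklr in CANA minus CR at -0.97, and in CR minus HFD all 7 intervals include 0.

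The order of the group means was CANA below HFD below CR for Khk, Gckr, Pklr and Gpd1, and CANA below CR below HFD for Mlxipl. It was CR below HFD below CANA for Txnip and CR below CANA below HFD for Pfkl. For all 7 genes the limma interval of CR minus HFD included 0, so CR and HFD were not shown to differ beyond their spread in any of them. For Khk, Gckr, Pklr, Mlxipl and Txnip the interval of CANA minus HFD excluded 0, before adjustment over all genes.

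Among arrays of the same group, Pklr and Khk were high and low together. Their deviations from the group means correlated at a Pearson r of 0.88 (n = 13, exact permutation within groups p = 0.00352, 0.0738 adjusted over 21 pairs of genes, two-sided). The Spearman rho was 0.92 (exact permutation p = 0.000434, 0.00911 adjusted). Without the 2 arrays whose Pklr deviation lay farthest from the median r was 0.81. With the mean of each group within each serial-number set removed, r was 0.65 over all 13 arrays. On those values it was 0.57 in the earlier set (7 arrays) and 0.92 in the later set (6 arrays). Removing these means leaves fewer independent values than arrays. Khk and Txnip had an r of 0.66 (exact permutation p = 0.0458, 0.481 adjusted) and Pklr and Txnip 0.50 (exact permutation p = 0.183, 0.640 adjusted). Of the 21 pairs, Pklr with Khk alone passed after adjustment, by rho and not by r. The permutations kept groups but not serial-number sets, so a shift shared with the set also enters these p-values. Mean deviations in the earlier and later set were -0.18 and 0.21 for Pklr and -0.13 and 0.15 for Khk. The r of 0.65 with set means removed was not tested.

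**Figure D3:**
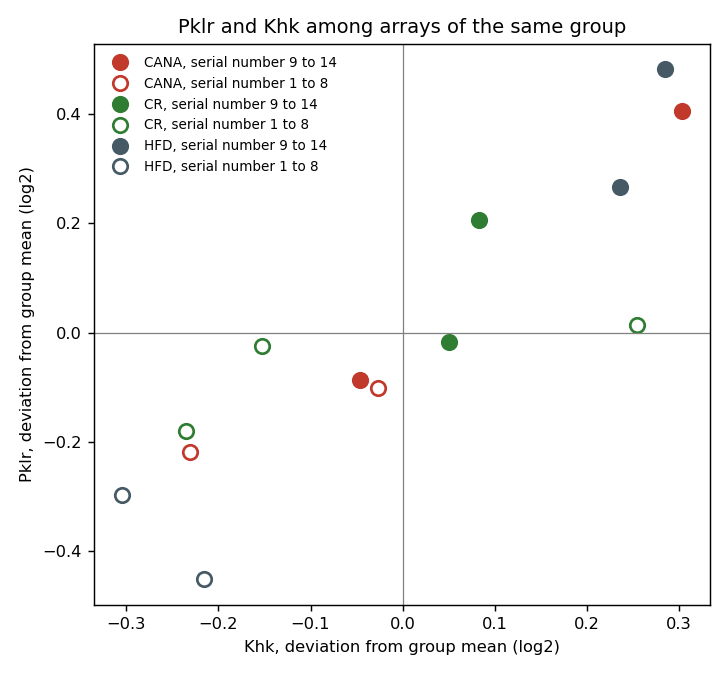
Deviation of Pklr (vertical axis, log2) against that of Khk (horizontal axis, log2) from the mean of the array's own group, with 1 point per array, colours for CANA, CR and HFD, and filled points for serial numbers 9 to 14. The points run from lower left to upper right with a Pearson r of 0.88, and both HFD arrays of the earlier set lie at the lower left and both of the later set at the upper right.

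As a description, the tested genes whose values were most like those of Pklr over the 13 arrays were Thrb (Pearson r 0.94), Khk (0.93), Hgfac (0.90), Mfsd4b1 (0.90) and Gamt (0.89). Those most like Khk were Mfsd4b1 (0.95), Pklr (0.93), Rassf7 (0.91), Ces2g (0.91) and Slc48a1 (0.88). Those most like Txnip were Rab30 (0.89), Dusp3 (0.88), Hps1 (0.86), Fgf21 (0.85) and Mm2pr (0.84). These are the top 5 of 13307 genes in each case, taken for their likeness, and the arrays share their group and serial-number set.

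Of 19 other glycolysis enzymes tested, 0 were called in CANA minus HFD, CR minus HFD or CANA minus CR. In CANA minus HFD 4 lay above and 15 below zero, with a median of -0.09, and in CANA minus CR 9 lay above and 10 below, with a median of -0.04. Pfkm, the muscle-type phosphofructokinase subunit, was at -0.28 in CANA minus HFD and Pfkfb2, a kinase and phosphatase of fructose 2,6-bisphosphate, at 0.30, and neither passed (limma adjusted p = 0.547 and 0.480). In CR minus HFD the median was -0.03, and the hexokinase gene Hk1 was at -0.32 without passing (limma adjusted p = 0.999). Hk1 and Pfkm were dim, at means of 4.75 and 4.80 over all arrays, where the lowest mean tested was 3.95.

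Of 6 tested genes of fructose and polyol handling, 5 lay below zero in CANA minus HFD (median -0.18) and 6 in CANA minus CR (median -0.22), while 2 did in CR minus HFD (median 0.04). None was called by limma. Tkfc, the triokinase that acts after Khk and aldolase, was at -0.21 in CANA minus HFD, -0.23 in CANA minus CR and 0.02 in CR minus HFD. Glyctk, the glycerate kinase, was at -0.30, -0.24 and -0.06 in the same comparisons.

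Of 16 partners and coregulators of ChREBP, 0 were called in any comparison, and their medians were -0.0088 in CANA minus HFD, -0.04 in CANA minus CR and 0.02 in CR minus HFD. Mlx, the partner with which ChREBP binds DNA, was at -0.12 in CANA minus HFD and -0.13 in CANA minus CR. Mlxip, the gene of the related factor MondoA, was at 0.13 and 0.05. Srebf1, which encodes the lipogenic regulator SREBP-1, averaged 7.78 ± 0.45 in CANA, 8.52 ± 0.28 in CR and 8.64 ± 0.17 in HFD. Its differences of -0.85 in CANA minus HFD and -0.73 in CANA minus CR did not pass (limma adjusted p = 0.108 and 0.185).

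The targets of ChREBP held the lowest and the highest differences among these lists, from -1.41 to 1.22 in CANA minus HFD. Of 25 tested, 2 were called lower in CANA minus HFD, where 0.0376% of all genes (5) were, and 2 were called lower in CANA minus CR, where 0.0526% (7) were. Both times these were Fasn, the fatty acid synthase, and Thrsp, a regulator of lipogenesis. Fasn averaged 8.78 ± 0.40 in CANA, 9.93 ± 0.21 in CR and 10.20 ± 0.36 in HFD, and Thrsp 10.41 ± 0.28 in CANA, 11.50 ± 0.33 in CR and 11.41 ± 0.20 in HFD. In CANA minus CR, Fasn fell by 1.14 (SE 0.19, limma adjusted p = 0.0195) and Thrsp fell by 1.09 (SE 0.17, limma adjusted p = 0.0144). Fasn and Thrsp are also targets of SREBP-1.

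These calls too were lost without some arrays. In CANA minus CR, Fasn did not pass without CANA replicate 2 (limma adjusted p = 0.0824), 3 (0.0850) or 4 (0.0572) or CR replicate 1 (0.0747) or 2 (0.0660), and Thrsp without CANA replicate 2 (0.0504) or 3 (0.0718) or CR replicate 1 (0.0508). Fasn passed in CANA minus HFD in all 13 fits with 1 array left out. Thrsp passed there in 6 and did not without CANA replicate 1 (0.0502), 2 (0.0843) or 3 (0.147) or HFD replicate 1 (0.0633), 2 (0.0558), 3 (0.109) or 4 (0.101). Within arrays 1 to 8 and 9 to 14 taken alone, neither gene passed in either comparison. Fasn in CANA minus HFD was -0.90 (limma adjusted p = 0.360) in the earlier set and -1.93 (0.0913) in the later set, and Thrsp was -0.90 (0.360) and -1.10 (0.221). The CANA minus CR difference of Fasn was -0.96 (0.212) and -1.31 (0.316), and that of Thrsp was -1.01 (0.175) and -1.23 (0.362).

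Of the 25 targets, 22 lay below zero in CANA minus CR (median -0.22) and 17 in CANA minus HFD (median -0.15), but 9 in CR minus HFD (median 0.08). The arrays of CANA and HFD did not overlap for 5 targets that were lower (Acly, Fasn, Scd1, Thrsp and Mid1ip1), beside 2.77% of all genes, and for 2 that were higher (Fgf21 and G6pc), beside 2.13%. Between CANA and CR, 5 targets were free of overlap and lower, beside 1.51% of all genes, and 0 were higher, beside 1.42%. Scd1, the stearoyl-CoA desaturase, differed by -1.31 in CANA minus CR (limma adjusted p = 0.0640). Fgf21, a hepatic hormone, differed by 1.02 the other way (limma adjusted p = 0.165). Arrdc4, a relative of Txnip in the arrestin family that responds to glucose, was at 0.12 in CANA minus HFD, -0.08 in CANA minus CR and 0.20 in CR minus HFD, in contrast to Txnip at 0.80, 0.90 and -0.10.

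Of 7 tested genes of the pentose phosphate pathway, 0 were called and 7 lay below zero in CANA minus HFD (median -0.13). Pgd, the 6-phosphogluconate dehydrogenase, averaged 7.24 ± 0.15 in CANA, 7.68 ± 0.22 in CR and 7.57 ± 0.31 in HFD, and differed by -0.43 in CANA minus CR (limma adjusted p = 0.386). Of 8 tested gluconeogenic enzymes, which oppose glycolysis, 0 were called. Of these, 6 lay above zero in CANA minus HFD (median 0.18), and 4 were free of overlap and higher (Fbp1, Pck1, G6pc and Got1), beside 2.13% of all genes. In CANA minus CR, 7 lay above zero (median 0.13) and 0 were free of overlap, beside 2.93% of all genes. Pck1, the cytosolic PEP carboxykinase that supplies the reverse path around pyruvate kinase, averaged 12.93 ± 0.12 in CANA, 12.65 ± 0.15 in CR and 12.53 ± 0.14 in HFD, with differences of 0.40 in CANA minus HFD (limma adjusted p = 0.185) and 0.28 in CANA minus CR (limma adjusted p = 0.458). Of 5 tested genes of glycerol phosphate and glycerol entry, 0 were called, and the median was -0.16 in CANA minus HFD and -0.16 in CANA minus CR. Some genes stand in more than 1 of these lists.

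**Figure D4:**
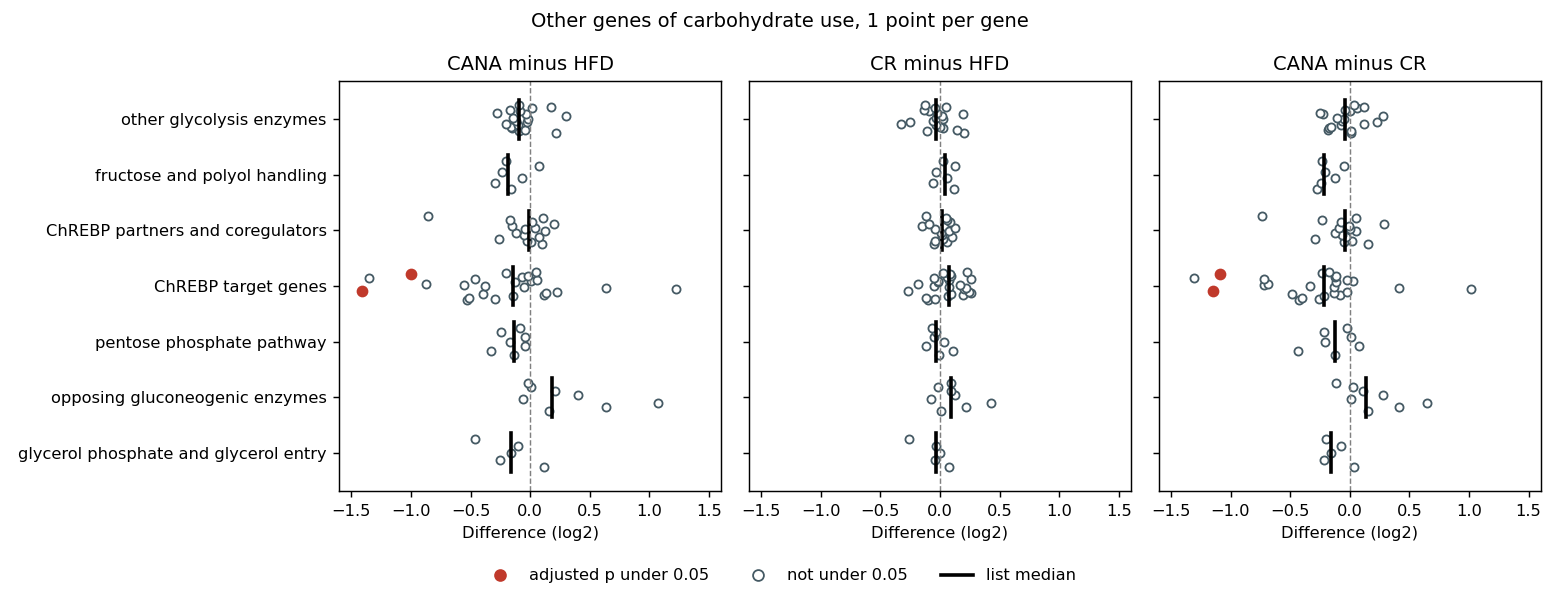
Differences (log2, horizontal axis) of the tested genes of 7 lists of carbohydrate use in CANA minus HFD, CR minus HFD and CANA minus CR, with 1 point per gene, filled where the limma adjusted p was under 0.05, and a bar at the median of each list. The filled points are Fasn and Thrsp among the ChREBP targets, and the medians of the gluconeogenic enzymes lie above zero at 0.18, 0.10 and 0.13 in the 3 panels.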

How the data were processed

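Total liver RNA was extracted with TRIzol and labelled by the WT Plus protocol for 13 arrays, per the labels' protocols. The deposited values are log2 signals that the authors summarised by RMA (robust multi-array averaging) using Expression Console, per the submitters' processing notes, and tool versions were not given in the sources used here. They are relative within a probe set, so levels were not compared between genes. Scanner files and detection values were not used here.

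Of 41345 probe sets, 23521 carried exactly 1 gene symbol in the platform annotation, and 23328 of these were updated through a RefSeq table. A further 1814 had several symbols and 16010 had none, and neither kind was tested. Where a gene had several probe sets (1082 of 22180 genes) the one with the highest mean was used. Dim genes (under percentile 40 of the means) were dropped, and the lowest mean among the 13308 genes kept was 3.95.

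A single fit to 13 arrays with limma 3.58.1 (R 4.3.3), without covariates, gave every comparison, with Benjamini-Hochberg adjustment over all genes tested and a threshold of 0.05. Correlations used exact permutations within groups (69120 in all). In deviations from group means over the tested genes, same-numbered replicates of different groups correlated at -0.15 to 0.30, over 0.1 in 7 of 12 pairs. Other pairs of arrays from different groups correlated at -0.32 to 0.25. Of 13 arrays, 8 correlated best with an array of their own number. These values do not settle whether the numbers pair samples. The main fit took no pairing, and a fit with the replicate number as a block is given at the end. The fit and the permutations were tested on simulated data holding known changes. Promoter sequences are those of RefSeq (GRCm38.p6).

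The genes, lists and serial-number sets were chosen with earlier results of these data known. The rule for named genes took all 9 genes, from each pathway list those called and up to 4 with the smallest p per comparison, and the 5 genes most like Pklr, Khk and Txnip. Arrdc4, Mlx, Mlxip and the list genes named for arrays without overlap were added for their roles or after their values were seen. Alternatives covered the filter on dim genes, normalization, variance model, array weights, averaging of probe sets, a threshold of 0.10, fits to the compared groups alone, the replicate number and serial number in the fit, each serial-number set apart, and each array left out.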

Additional observations from a re-analysis of the deposited data

Results flagged for a closer look

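The difference between the effects of canagliflozin and of calorie restriction on Pklr, which is CANA minus CR, was tested directly and passed at -0.97 on the log2 scale, with the dependence on single arrays given above.

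Within groups, 2 of 21 sets of arrays held a value far from the others, where chance gives about 1 in 20 such sets. Mlxipl read 9.22 in CR replicate 5, beside 9.68 to 9.81 in the other CR arrays. Gpd1 read 10.72 in HFD replicate 3, beside 9.74 to 9.79 in the other HFD arrays.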

How the results depend on the processing

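The settings moved the counts of called genes. Filters, variance models and the threshold leave the differences unchanged, so for them only the counts could move. Between the serial-number sets the differences moved as well. In CANA minus HFD, Fasn was -0.90 within arrays 1 to 8 and -1.93 within arrays 9 to 14, and Pklr was -0.51 and -0.94. In CANA minus HFD, 22 genes were called, against 12 without a filter on dim genes, 14 and 39 with filters at the 20th and 60th percentiles, 40 with the serial number as a covariate, 46 with the serial-number set as a block, 2 within arrays 1 to 8, 0 within arrays 9 to 14 and 56 at an adjusted p under 0.10. Leaving out single arrays gave 3 to 38 (38, 5, 3 and 11 without CANA replicates 1 to 4, and 10, 6, 5 and 7 without HFD replicates 1 to 4). In CANA minus CR, 20 genes were called, against 5 within arrays 1 to 8, 0 within arrays 9 to 14 and 34 at 0.10. Leaving out single arrays gave 7 to 23 (9, 7 and 8 without CANA replicates 2 to 4, and 8, 8 and 12 without CR replicates 1, 2 and 4). In CR minus HFD, 0 were called, and 1 with the replicate block, the serial number or its set in the fit. Of the 7 genes, Pklr was called in 19 of 29 alternatives in CANA minus CR, and 0 genes were called within arrays 9 to 14 and 0 to 1 without single arrays. The set as a block called 1 of them, Pklr, in CANA minus HFD. Fewer arrays enter the fits within a set; the cause of the other changes was not tested.

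With the replicate block, Pklr in CANA minus CR was -0.92 (limma adjusted p = 0.0541), so 0 of the 7 genes were called, and Fasn was -1.09 (0.0795); 8 of 13 arrays correlated best with an array of their own number. That block also turned Mlxipl to 0.019 and Thrsp to -0.026 in CR minus HFD.

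Other reversals concerned small differences. In CR minus HFD, arrays 1 to 8 gave Txnip 0.13, Mlxipl 0.019 and Fasn 0.068, and arrays 9 to 14 gave Pklr -0.037, Khk -0.15, Pfkl 0.028, Gpd1 -0.066 and Gckr -0.16. Without single arrays Khk ranged from -0.060 to 0.14, Gckr from -0.054 to 0.082, Txnip from -0.34 to 0.075, Mlxipl from -0.13 to 0.019 and Thrsp from -0.026 to 0.19. In CANA minus HFD, Pfkl was 0.012 within arrays 9 to 14 and -0.095 to 0.0064 without single arrays, and Gpd1 was -0.25 to 0.078. In CANA minus CR, Pfkl was -0.016 within arrays 9 to 14. For Pklr, Khk, Txnip, Mlxipl and Gckr the sign in both CANA comparisons was the same in all 29 alternatives. Many of these could not change it: the filters, the variance models and the threshold of 0.10 leave the difference as it was. A further 13 each left out a single array of the same data.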
